A study of Mus musculus with 24 samples.

Results

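The genes of the synaptic vesicle and of the machinery that releases its content were followed across 24 short-oligonucleotide arrays of mouse brain RNA. The set holds 33 genes. They are 8 vesicle proteins (synapsins, synaptophysin, synaptogyrins and SV2 proteins), 6 synaptotagmins, 8 SNARE proteins and their cofactors, 8 Rab3 and active zone genes, and 3 genes of vesicle retrieval. A probe set was assigned to a gene when the 2016 annotation of the array gave it exactly 1 gene symbol and that symbol was on the list. All 33 genes were found, among the 18193 genes that the array covers by the same rule. Together they have 90 of the 45037 probe sets tested, and each gene is represented by the probe set with the highest mean over all 24 arrays.

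The mice were males of 12 ± 1 weeks, and every brain was taken at zeitgeber time 6. Pull-down RNA is polyadenylated RNA that anti-FLAG beads retained from brains perfused with formaldehyde. The method, mRNA tagging, expresses a poly(A)-binding protein with a FLAG tag in chosen cells so that their messages can be pulled out. By the labels these are the cells that express Homer1a, a truncated scaffold protein of the postsynapse that neuronal activity induces. Pull-down RNA was made from mice kept awake by gentle handling for 6 h from light onset (pull-down SD, n = 6) and from undisturbed mice (pull-down control, n = 6). Whole-brain total RNA, extracted with a kit and with no perfusion described, came from sleep-deprived (whole brain SD, n = 4) and undisturbed mice (whole brain control, n = 4). The supernatant is the total RNA that the beads left behind, labelled as Homer1a-negative (n = 4). Its array 13 is called sleep-deprived in the title and control in the source field, so the 4 supernatants were kept as 1 group. Strain, the promoter of the tag and the number of mouse lines are not given in the sources used here, nor is the animal of each supernatant. The design text counts 10 sleep-deprived and 10 undisturbed mice, which is 1 mouse for each pull-down and whole-brain array and leaves none over for the supernatants. These may therefore share animals with pull-downs, and supernatant 13 has the number of pull-down control 13, but the labels do not link them, and the fit took all arrays as independent. Arrays are named by their group and the number in their title.

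As background, neurotransmitter is stored in synaptic vesicles, which are filled, tethered and primed at the active zone, a protein scaffold on the presynaptic membrane. Fusion is driven by the vesicle SNARE synaptobrevin and the plasma membrane SNAREs syntaxin and SNAP-25, held ready by complexin and triggered by calcium through synaptotagmin. Afterwards the ATPase NSF and its adaptor SNAP take the SNARE complex apart, and dynamin, amphiphysin and synaptojanin retrieve the membrane.

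The values are log2 intensities, so a difference of 1 stands for a 2-fold change, and levels of different probe sets are not compared. The arrays of the 3 extracts are not on 1 common scale, so folds and percentages of a level hold for the deposited values only. The array median was 4.37 to 5.70 in pull-down, 6.04 to 6.24 in whole brain and 6.09 to 6.21 in supernatant. The median gene was accordingly 0.64 below whole brain in the pull-downs as deposited, 0.23 higher after quantile normalization of the arrays and 0.51 higher after each array was centred on its median. The difference between the 3' and 5' probe sets of the control gene Gapdh, a sign of RNA integrity and amplification, was 3.29 to 5.96 in pull-down, 2.49 to 2.95 in whole brain and 2.31 to 2.59 in supernatant. Pull-down SD 1 and pull-down control 3 had the most 18S ribosomal RNA signal of the 12 pull-downs, 11.04 and 11.14 against 6.83 to 9.70 in the other pull-downs, with 13.79 to 13.94 in whole brain and 14.23 to 14.42 in supernatant. These arrays stood apart among the members as well. Over the 19 members that were lower in pull-down, their median distance from the whole-brain mean was -0.08 and -0.51, against -1.18 to -2.22 in the other pull-downs. Pull-down control 11 was the lowest pull-down for 21 of 33 members. The part of these array differences in the results was not tested, and the results without these arrays are given beside the members whose call they change.

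The first question of the design is which transcripts the pull-down enriches. Against whole brain, the release machinery split. The SNARE syntaxin 1A, complexin 1, the NSF adaptor Napb, amphiphysin, and the active zone scaffolds Rims2 and Pclo were higher in pull-down at every scaling tried. The vesicle membrane proteins Syp, Sv2a and Sv2c, the synaptotagmins Syt2, Syt11 and Syt13, and the scaffold Bsn were lower at every scaling. Of these lower genes, Sv2a and Sv2c have no second probe set, and Syt13 and Bsn each had 1 other set that did not pass (-0.05 and -0.19). For 5 of the 6 higher genes, all but Amph, which has no second probe set, the direction depends on the probe set, since at least 1 other set of each was lower. With the mean of all probe sets of a gene Cplx1, Napb, Rims2 and Pclo were lower than in whole brain (-0.47, -0.86, -0.80 and -0.50). Of 33 members, 8 were higher, 19 lower and 6 did not pass (limma, Benjamini-Hochberg adjusted p under 0.05, all probe sets adjusted together). Over all genes the shares are 12.9% higher and 68.8% lower. The members' median difference was -0.75, against -0.64 for all genes, and 16 of 33 members lay above the median gene. After quantile normalization the members' median was -0.45, against 0.23 for all genes, and 9 of 33 lay above the median gene. After centring the medians were 0.41 and 0.51, with 16 of 33 above. Quantile normalization gave 8 higher and 17 lower, and centring gave 16 higher and 7 lower, while the shares of all genes above hold for the deposited values only. Bulk RNA cannot tell fewer cells of a type from less RNA per cell.

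**Figure D1:**
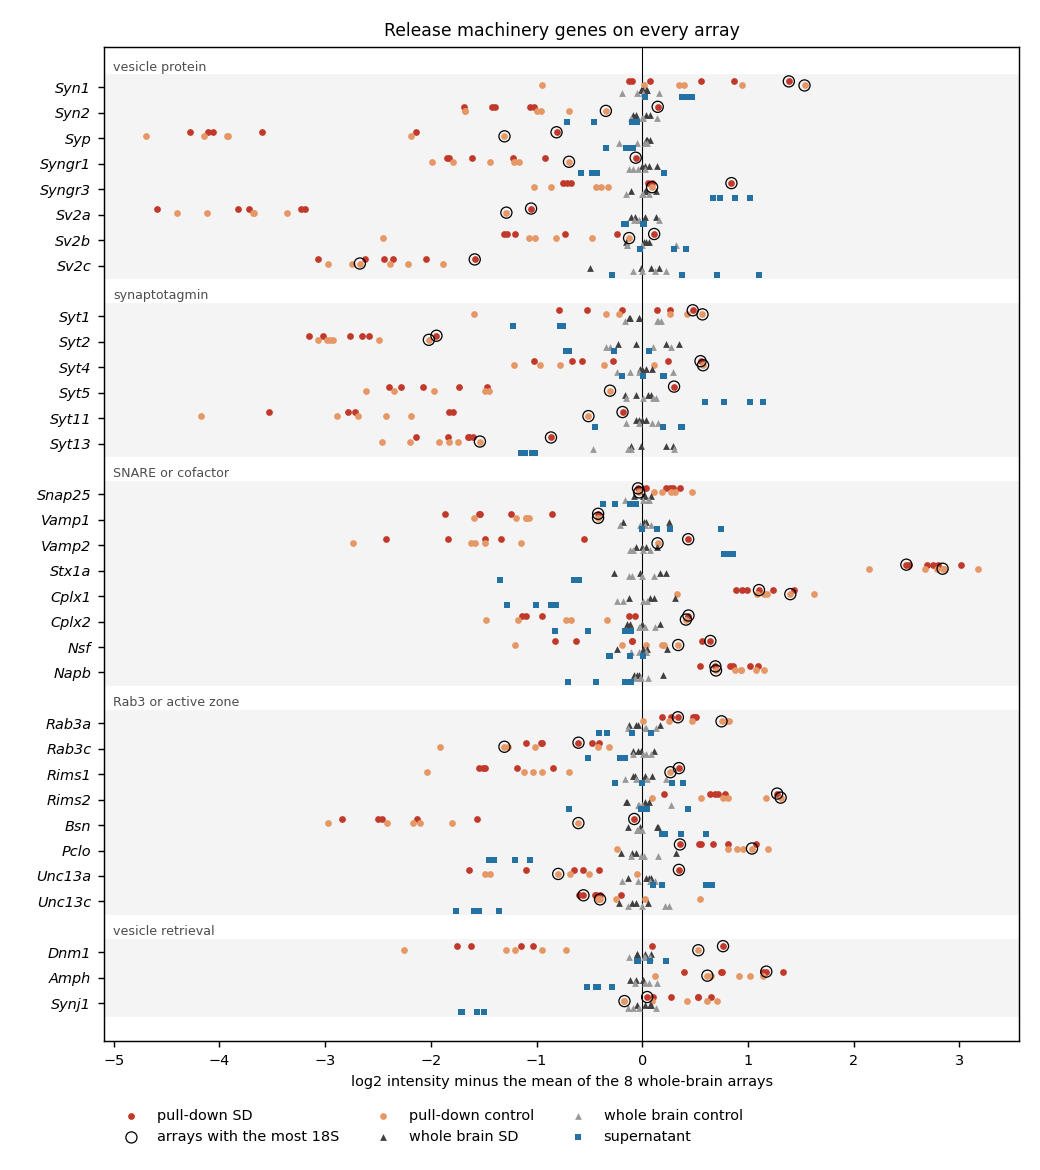
Each point is the log2 intensity of 1 array for a gene's representative probe set, minus the mean of the 8 whole-brain arrays for that gene, with the genes grouped by role and the groups by colour. Rings mark pull-down SD 1 and pull-down control 3, the arrays with the most 18S signal. Stx1a, at 12.04 to 13.07 before the subtraction, lies above whole brain on all 12 pull-down arrays, while Syp and Sv2a lie below it on all 12, with the ringed arrays nearest to whole brain.

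Compared with whole brain, pull-down held none of the 8 vesicle proteins at a higher level and 6 at a lower one. Over all genes 12.9% were higher and 68.8% lower. Synaptic vesicle glycoprotein 2A, encoded by Sv2a and known as the binding site of the drug levetiracetam, read 5.74, 6.65 and 9.28 in the lowest, median and highest of the 12 pull-downs and 10.23, 10.30 and 10.49 in those of the 8 whole brains. The supernatants read 10.16, 10.18, 10.34 and 10.35. Every pull-down was below every whole brain and supernatant, and pull-down SD 1 at 9.28 and pull-down control 3 at 9.04 were the nearest to them. The difference from whole brain was -3.34 ± 0.34 (log2, SE; 9.85% of the whole-brain level, adjusted p = 1.58e-09), and that from supernatant -3.27 ± 0.42 (adjusted p = 1.69e-07).

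Synaptophysin (Syp), an abundant membrane protein of the vesicle, read 7.89, 8.67 and 11.78 in the lowest, median and highest pull-down and 12.37, 12.63 and 12.66 in whole brain. Supernatants were at 12.44, 12.48, 12.51 and 12.25. Again no pull-down reached whole brain or supernatant, and pull-down SD 1 (11.78) and pull-down control 3 (11.29) came closest. The differences were -3.27 ± 0.39 from whole brain (10.4% of its level, adjusted p = 3.02e-08) and -3.09 ± 0.49 from supernatant (adjusted p = 3.62e-06). Sv2c, the SV2 form known from the basal ganglia, was 3.06, 3.71 and 4.54 in pull-down and 5.64, 6.17 and 6.35 in whole brain (lowest, median, highest), and 7.23, 5.84, 6.50 and 6.84 in the supernatants. These groups did not overlap either, and here pull-down control 3 was not among the high arrays. In all 12 pull-downs Sv2c lay below the array's own median, between percentiles 7.35 and 40.5 of its probe sets, and it was not shown to be above background there, so that the size of its difference is uncertain. The fitted differences were -2.42 ± 0.19 from whole brain (adjusted p = 2.08e-11) and -2.89 ± 0.24 from supernatant (adjusted p = 1.02e-10).

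The synapsins, phosphoproteins that hold vesicles in the reserve pool, differed between the paralogues. Syn1 read 9.49, 10.81 and 11.98 in pull-down (lowest, median, highest), 10.25, 10.45 and 10.60 in whole brain and 10.82, 10.87, 10.91 and 10.46 in the supernatants. The groups overlapped, and neither its 0.41 ± 0.23 against whole brain (adjusted p = 0.0952) nor its 0.09 ± 0.29 against supernatant (adjusted p = 0.784) passed. Syn1 was higher than in whole brain without pull-down control 11 (0.55, adjusted p = 0.011), without that array and both arrays rich in 18S (0.34, adjusted p = 0.037), with array weights (0.28, adjusted p = 0.039) and after centring (1.57, adjusted p = 0.000116). Centring also made it higher than in supernatant (1.26, adjusted p = 0.00747). Syn2 read 8.77, 9.41 and 10.60 in pull-down, 10.35, 10.46 and 10.60 in whole brain and 10.36, 10.00, 10.41 and 9.74 in supernatant. Only pull-down SD 1 exceeded the whole-brain mean. Syn2 was lower, with a difference of -1.07 ± 0.20 from whole brain (adjusted p = 2.72e-05) and -0.74 ± 0.25 from supernatant (adjusted p = 0.0098), although centring turned both values positive, 0.09 and 0.44. Sv2b, a further SV2 form, was lower than in whole brain (-0.88 ± 0.22, adjusted p = 0.000853), with the sign turned (0.27) when arrays were centred. The synaptogyrin Syngr1, a vesicle membrane protein related to synaptophysin, was lower as well (-1.31 ± 0.20, adjusted p = 1.33e-06), but not after centring (-0.16, adjusted p = 0.589). Syngr3, its relative, was -0.34 ± 0.18 from whole brain, which did not pass (adjusted p = 0.0805). Its difference from supernatant did, at -1.17 ± 0.23 (adjusted p = 5.64e-05). Without pull-down SD 1 and control 3 it also passed against whole brain, at -0.50 (adjusted p = 0.00311). In the opposite direction it was higher than in whole brain after quantile normalization (0.27, adjusted p = 0.0297) and centring (0.81, adjusted p = 0.00282).

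Among the synaptotagmins, the calcium sensors of the family and their relatives, 4 of 6 were lower in pull-down with whole brain as the comparison, and none was higher. The shares of all genes are 68.8% lower and 12.9% higher. Syt1, the sensor of fast release in forebrain neurons, read 9.41, 10.98 and 11.57 in pull-down and 10.84, 10.98 and 11.18 in whole brain (lowest, median, highest), with 10.25, 10.24, 10.23 and 9.78 in the supernatants. Pull-down spanned the whole-brain range, and the difference of -0.13 ± 0.21 did not pass (adjusted p = 0.577). Centring made it higher (1.03, adjusted p = 0.00437) and the mean of all probe sets lower (-1.59, adjusted p = 6.02e-07). Against supernatant Syt1 was higher in pull-down, by 0.76 ± 0.27 (adjusted p = 0.0125), with 11 of 12 arrays above the supernatant mean. That call was lost without supernatant 13 (0.64, adjusted p = 0.0584).

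Syt2, the sensor that takes the same role in brainstem and other fast synapses, behaved otherwise. It read 5.37, 5.67 and 6.57 in pull-down, 8.17, 8.54 and 8.86 in whole brain and 8.58, 7.80, 7.83 and 8.25 in the supernatants. No pull-down reached any other array. The differences were -2.71 ± 0.17 from whole brain (15.2% of its level, adjusted p = 5.74e-13) and -2.31 ± 0.22 from supernatant (adjusted p = 9.46e-10). In pull-down Syt2 lay between percentiles 45.4 and 69.9, with 1 array below its own median, and was not shown to be above background there. Syt11, a family member that does not act as a fast calcium sensor, read 7.15, 8.76 and 11.13 in pull-down, 11.17, 11.30 and 11.47 in whole brain and 10.87, 11.52, 11.68 and 11.70 in supernatant. Pull-down SD 1, at 11.13, lay just below the whole brains, whose lowest was 11.17, and overlapped the supernatants. Its differences were -2.31 ± 0.35 (adjusted p = 1.2e-06) against whole brain and -2.43 ± 0.44 (adjusted p = 1.9e-05) against supernatant.

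Syt5, another vesicle synaptotagmin, read 5.89, 6.66 and 8.81 in pull-down, 8.34, 8.54 and 8.64 in whole brain and 9.65, 9.53, 9.29 and 9.10 in supernatant. Only pull-down SD 1, at 8.81, lay above whole brain, and no pull-down reached the supernatants. The differences were -1.65 ± 0.28 (adjusted p = 5.98e-06) from whole brain and -2.54 ± 0.35 (adjusted p = 4.07e-07) from supernatant. After centring that from whole brain did not pass (-0.50, adjusted p = 0.0958). Syt13, an atypical member without calcium binding, read 6.15, 6.82 and 7.74 in pull-down, 8.14, 8.55 and 8.91 in whole brain and 7.56, 7.50, 7.46 and 7.59 in supernatant. It was below every whole brain but overlapped the supernatants through pull-down SD 1. Against whole brain the difference was -1.78 ± 0.15 (adjusted p = 1.23e-10). Against supernatant it was -0.71 ± 0.20 (adjusted p = 0.00213), with the sign turned after quantile normalization (0.12) and centring (0.47). Syt4 passed in neither comparison, with -0.36 ± 0.21 and -0.42 ± 0.26 against whole brain and supernatant, and passed in both without pull-down SD 1 and control 3 (-0.55 and -0.60). Centring turned it to 0.79 against whole brain, where it was called higher (adjusted p = 0.0141).

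The SNARE proteins and their cofactors held both directions, with 3 of 8 higher and 3 lower against whole brain (12.9% and 68.8% of all genes). Syntaxin 1A (Stx1a), the plasma membrane SNARE, had the largest difference of any member upward. It read 12.04, 12.66 and 13.07 in the lowest, median and highest pull-down and 9.63, 9.89 and 10.12 in whole brain. The supernatants read 9.24, 9.25, 9.29 and 8.54. All 12 pull-downs exceeded all other arrays, the arrays rich in 18S included, and the difference was 2.73 ± 0.14 against whole brain (6.63-fold, adjusted p = 1.78e-14) and 3.54 ± 0.18 against supernatant (11.6-fold, adjusted p = 5.35e-14). This probe set is of the kind whose probes can match several transcripts, named x_at by the maker, and the gene's other probe set was lower in pull-down, as described further on.

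Complexin 1 (Cplx1), which binds the assembled SNARE complex and holds it ready for calcium, read 11.52, 12.33 and 12.82 in pull-down, 10.96, 11.22 and 11.51 in whole brain and 10.38, 10.33, 10.19 and 9.92 in supernatant. The groups did not overlap. It was 2.17-fold higher against whole brain (1.11 ± 0.15, adjusted p = 1.37e-07). It was higher by 2.11 ± 0.18 against supernatant (4.3-fold, adjusted p = 2.31e-10). Its other 2 probe sets were lower than in whole brain, as described further on. Its paralogue Cplx2 read 8.68, 9.46 and 10.59 in pull-down, 10.00, 10.14 and 10.32 in whole brain and 9.64, 10.05, 9.99 and 9.33 in supernatant, with overlap in both comparisons. It was lower than in whole brain (-0.58 ± 0.22, adjusted p = 0.0163; 0.58 after centring) and did not pass against supernatant (-0.17 ± 0.27, adjusted p = 0.56). There centring called it higher (1.00, adjusted p = 0.0199) and the mean of all probe sets lower (-1.37, adjusted p = 0.000617). Napb, the brain form of the adaptor that brings NSF to spent SNARE complexes, read 11.49, 11.85 and 12.10 in pull-down, 10.87, 10.92 and 11.14 in whole brain and 10.24, 10.84, 10.78 and 10.51 in supernatant. All pull-downs were above all other arrays, on average 0.89 ± 0.12 above whole brain (adjusted p = 2.6e-07) and 1.25 ± 0.15 above supernatant (adjusted p = 6.81e-08), while its other 5 probe sets were lower. NSF itself did not pass in either comparison (-0.09 ± 0.19 and 0.09 ± 0.24). It was higher in both after centring (1.07 and 1.27, adjusted p = 0.00151 and 0.00299) and lower in both with the mean of all probe sets (-1.37 and -1.32, adjusted p = 6.63e-11 and 1.42e-08).

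The synaptobrevins, SNAREs of the vesicle, were both lower as deposited and after quantile normalization. After centring neither passed against whole brain (Vamp1 -0.0040 and Vamp2 -0.15, adjusted p = 0.986 and 0.722) or supernatant (-0.27 and -0.94, adjusted p = 0.343 and 0.0708). Vamp1, the form known from spinal cord and brainstem, read 7.80, 8.52 and 9.24 in pull-down, 9.45, 9.68 and 9.91 in whole brain and 10.41, 9.66, 9.80 and 9.92 in supernatant, without overlap. Its differences were -1.16 ± 0.17 (adjusted p = 1.05e-06) and -1.45 ± 0.22 (adjusted p = 1.58e-06) against whole brain and supernatant. Vamp2, the main forebrain form, read 10.07, 11.32 and 13.24 in pull-down, 12.69, 12.81 and 12.94 in whole brain and 13.66, 13.58, 13.63 and 13.61 in supernatant. Pull-down SD 1 (13.24) and pull-down control 3 (12.95) exceeded every whole brain, and no pull-down reached the supernatants. The differences were -1.30 ± 0.29 (adjusted p = 0.000205) and -2.12 ± 0.36 (adjusted p = 1.03e-05). Snap25, the third partner of the complex, did not pass against whole brain (0.20 ± 0.11, adjusted p = 0.092) and was higher than in supernatant on 12 of 12 arrays (0.41 ± 0.14, adjusted p = 0.0122). It was higher than in whole brain without pull-down SD 1 and control 3 (0.25, adjusted p = 0.0387), with array weights (0.27, adjusted p = 0.00629), with a trended robust fit (0.20, adjusted p = 0.0212) and after centring (1.36, adjusted p = 1.61e-08). Against supernatant the call was lost after quantile normalization (0.12, adjusted p = 0.275), with the mean of all probe sets (0.22, adjusted p = 0.0922) and without supernatant 15 (0.35, adjusted p = 0.0524). Snap25 lay between 13.32 and 14.17 on all arrays, above percentile 99.9 of each array, whose highest probe sets read 13.89 to 14.41. Whether this probe set was saturated was not tested.

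The upstream sequences of the genes with the largest differences in each direction are shown because the extracts separate them. RefSeq windows of the 250 bases before the transcription start (GRCm38.p6, read 5' to 3' on the gene's strand) exist here for 26 of 33 members, 34 windows in all. Capitals mark the matches of 4 motifs searched on both strands, none of which overlaps another in the windows printed. The motifs are the GC box CCGCCC, the cAMP response element TGACGTCA, the left part of the neuron-restrictive silencer element, TTCAGCACC, and the EGR site GCGGGGGCG. The windows are Stx1a at chr5:135023232-135023481 on the plus strand, Cplx1 at chr5:108550028-108550277 on the minus strand, Syp at chrX:7638330-7638579 on the plus strand and Sv2a at chr3:96180977-96181226 on the plus strand. Syn1, at chrX:20920919-20921168 on the minus strand, is added as the only member window with the response element or the silencer part.
Stx1a: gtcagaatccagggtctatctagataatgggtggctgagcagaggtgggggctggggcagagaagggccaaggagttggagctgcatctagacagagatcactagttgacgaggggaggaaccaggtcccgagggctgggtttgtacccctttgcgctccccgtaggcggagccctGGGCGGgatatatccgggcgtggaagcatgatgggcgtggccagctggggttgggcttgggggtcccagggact
Cplx1: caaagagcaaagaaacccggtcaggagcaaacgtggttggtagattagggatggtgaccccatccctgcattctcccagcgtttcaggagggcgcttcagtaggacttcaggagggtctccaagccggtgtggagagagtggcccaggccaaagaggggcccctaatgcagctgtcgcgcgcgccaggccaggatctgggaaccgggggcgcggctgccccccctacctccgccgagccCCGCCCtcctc
Syp: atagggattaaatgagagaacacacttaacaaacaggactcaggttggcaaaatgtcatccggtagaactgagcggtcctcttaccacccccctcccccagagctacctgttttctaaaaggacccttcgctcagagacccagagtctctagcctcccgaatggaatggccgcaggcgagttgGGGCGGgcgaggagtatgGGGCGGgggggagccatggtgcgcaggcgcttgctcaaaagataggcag
Sv2a: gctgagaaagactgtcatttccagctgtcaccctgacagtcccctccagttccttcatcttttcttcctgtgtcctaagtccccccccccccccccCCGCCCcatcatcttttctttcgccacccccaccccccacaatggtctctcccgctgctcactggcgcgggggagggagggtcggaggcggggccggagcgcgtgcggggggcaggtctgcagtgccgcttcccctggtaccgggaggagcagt
Syn1: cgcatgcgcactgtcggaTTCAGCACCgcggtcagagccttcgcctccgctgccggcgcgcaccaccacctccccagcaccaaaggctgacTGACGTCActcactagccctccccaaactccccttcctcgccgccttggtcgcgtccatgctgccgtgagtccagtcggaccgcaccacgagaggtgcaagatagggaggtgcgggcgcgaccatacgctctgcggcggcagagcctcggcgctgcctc
A GC box was present in 19 of the 34 member windows and in 32.7% of all 32851 windows of this length, and it occurs in the windows of the higher genes Stx1a and Cplx1 as in those of the lower genes Syp and Sv2a. The response element was found in 1.55%, the silencer part in 0.301% and the EGR site, which among members is in Syn2 and Syngr1, in 2.57% of all windows. A match describes letters in this window only.

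Among Rab3 and active zone genes, 3 of 8 were higher and 5 lower than in whole brain (12.9% and 68.8% of all genes). The Rab3 proteins are GTPases that bring vesicles to the active zone. Rab3a read 11.22, 11.68 and 12.02 in pull-down, 11.07, 11.20 and 11.37 in whole brain and 11.10, 11.29, 10.87 and 10.80 in supernatant, and was higher by 0.45 ± 0.13 (adjusted p = 0.00259) and 0.64 ± 0.16 (adjusted p = 0.001) with overlapping groups. Neither passed after quantile normalization (0.16 and 0.14, adjusted p = 0.205 and 0.386). The representative set of Rab3a is of the x_at kind, and its other set was lower in both comparisons (-2.13 and -3.05). With the mean of all probe sets Rab3a was also lower in both (-0.84 and -1.21, adjusted p = 0.000227 and 6.51e-05). Rab3c read 7.94, 8.90 and 9.55 in pull-down, 9.76, 9.85 and 9.97 in whole brain and 9.35, 9.65, 9.66 and 9.70 in supernatant. It was below every whole brain, with a difference of -0.89 ± 0.17 (adjusted p = 2.75e-05), and lower than in supernatant (-0.63 ± 0.21, adjusted p = 0.00905). Centring turned both values positive (0.26 and 0.55), and that against supernatant was called higher (adjusted p = 0.0472).

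The RIM proteins link Rab3, calcium channels and the priming factors. Rims2 read 8.54, 9.18 and 9.75 in pull-down, 8.29, 8.43 and 8.72 in whole brain and 7.75, 8.48, 8.88 and 8.43 in supernatant. All 12 pull-downs were above both means, and the differences were 0.75 ± 0.17 (adjusted p = 0.000206) and 0.81 ± 0.21 (adjusted p = 0.00116). By its representative probe set Rims1 went the other way. It read 7.94, 8.90 and 10.32 in pull-down, 9.81, 9.96 and 10.20 in whole brain and 9.72, 10.36, 10.26 and 9.97 in supernatant. Pull-down SD 1 (10.32) and pull-down control 3 (10.24) were the only pull-downs above whole brain. The differences were -0.98 ± 0.23 (adjusted p = 0.000433) and -1.08 ± 0.29 (adjusted p = 0.00173), and centring turned them to 0.17 and 0.09. With the mean of all probe sets Rims2 was lower than in whole brain (-0.80, adjusted p = 8.32e-07). Rims1 then did not pass (-0.0072, adjusted p = 0.971), so the split of both genes depends on the probe set.

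Piccolo and bassoon, the giant scaffolds of the active zone, also parted by their representative probe sets. Pclo read 8.89, 9.94 and 10.32 in pull-down, 8.93, 9.09 and 9.45 in whole brain and 8.07, 7.92, 7.73 and 7.68 in supernatant. Apart from pull-down control 11, at 8.89, the pull-downs were above the highest whole brain, and all 12 were above the supernatants. Pclo was higher by 0.72 ± 0.16 (adjusted p = 0.000172) against whole brain and by 2.00 ± 0.20 (4-fold, adjusted p = 1.93e-09) against supernatant. With the mean of all probe sets Pclo was instead lower than in whole brain (-0.50, adjusted p = 0.000602). Bsn was lower, with a difference of -1.97 ± 0.27 from whole brain (25.5% of its level, adjusted p = 3.48e-07) and -2.31 ± 0.34 from supernatant (adjusted p = 1.37e-06). Pull-down SD 1, at 11.01, was the only pull-down inside the whole-brain range.

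The Munc13 proteins prime docked vesicles for fusion. Unc13a read 6.22, 7.19 and 8.20 in pull-down, 7.67, 7.91 and 7.97 in whole brain and 8.51, 7.96, 8.04 and 8.46 in supernatant. It was lower, with differences of -0.75 ± 0.20 from whole brain (adjusted p = 0.00163) and -1.13 ± 0.26 from supernatant (adjusted p = 0.000305). Against whole brain the sign turned under quantile normalization (0.19) and centring, which called it higher (0.41, adjusted p = 0.0188). The difference from supernatant did not pass after quantile normalization (-0.41, adjusted p = 0.118). Unc13c, known from cerebellar granule cells, read 7.36, 7.55 and 8.50 in pull-down, 7.73, 7.92 and 8.21 in whole brain and 6.41, 6.60, 6.19 and 6.36 in supernatant. The difference from whole brain was -0.29 ± 0.13 with an adjusted p of 0.0429, a call that ended without pull-down SD 1 and control 3 (adjusted p = 0.0812). The lower call also ended without any 1 of 12 of the 20 arrays (adjusted p = 0.0514 to 0.0872). Quantile normalization and centring called Unc13c higher instead (0.49 and 0.86, adjusted p = 0.00314 and 0.00012). Against supernatant every pull-down was higher, by 1.27 ± 0.17 (2.41-fold, adjusted p = 2.6e-07).

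Of the retrieval genes, amphiphysin (Amph), which bends the membrane of the budding vesicle and recruits dynamin, was higher in pull-down. It read 8.24, 8.95 and 9.45 in pull-down, 8.0, 8.13 and 8.26 in whole brain and 7.83, 7.70, 7.68 and 7.60 in supernatant, with 1 pull-down inside the whole-brain range and none inside that of the supernatants. The differences were 0.83 ± 0.14 (adjusted p = 8.57e-06) and 1.25 ± 0.18 (adjusted p = 8.8e-07). Synaptojanin 1 (Synj1), the phosphatase that strips the clathrin coat, read 11.52, 12.04 and 12.41 in pull-down, 11.56, 11.69 and 11.83 in whole brain and 10.20, 10.13, 9.98 and 10.00 in supernatant. It was 1.92 ± 0.17 above supernatant on all 12 arrays (3.78-fold, adjusted p = 3.9e-10) but only 0.30 ± 0.14 above whole brain (adjusted p = 0.0436; -0.05 after quantile normalization). The call against whole brain ended without any 1 of 13 of the 20 arrays (adjusted p = 0.0546 to 0.0784). The scission GTPase dynamin 1 (Dnm1) was lower, with differences of -0.88 ± 0.28 from whole brain (adjusted p = 0.00598) and -0.94 ± 0.36 from supernatant (adjusted p = 0.0197), and centring turned both positive (0.27 and 0.24). The call against supernatant ended without supernatant 15 (-0.88, adjusted p = 0.0543).

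Against supernatant 11 members were higher and 18 lower in pull-down, where all genes gave 17.4% higher and 58.7% lower, and the members' median was -0.71, against -0.66 for all genes. Quantile normalization gave 9 higher and 16 lower, and centring 15 higher and 7 lower. The members' median was then -0.41 after quantile normalization, against 0.19 for all genes, and 0.47 after centring, against 0.51. Groups did not overlap for 11 members against whole brain, where 25.7% of all genes are without overlap, and for 16 against supernatant, where the share is 33.6%. Both comparisons use the same pull-down arrays. With pull-down SD 1 and control 3 left out, 9 members were higher and 20 lower than in whole brain, and 11 higher and 19 lower than in supernatant. The shares of all genes called are given for the deposited values of all arrays only. Counts under other scalings or with arrays left out therefore describe the members alone.

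**Figure D2:**
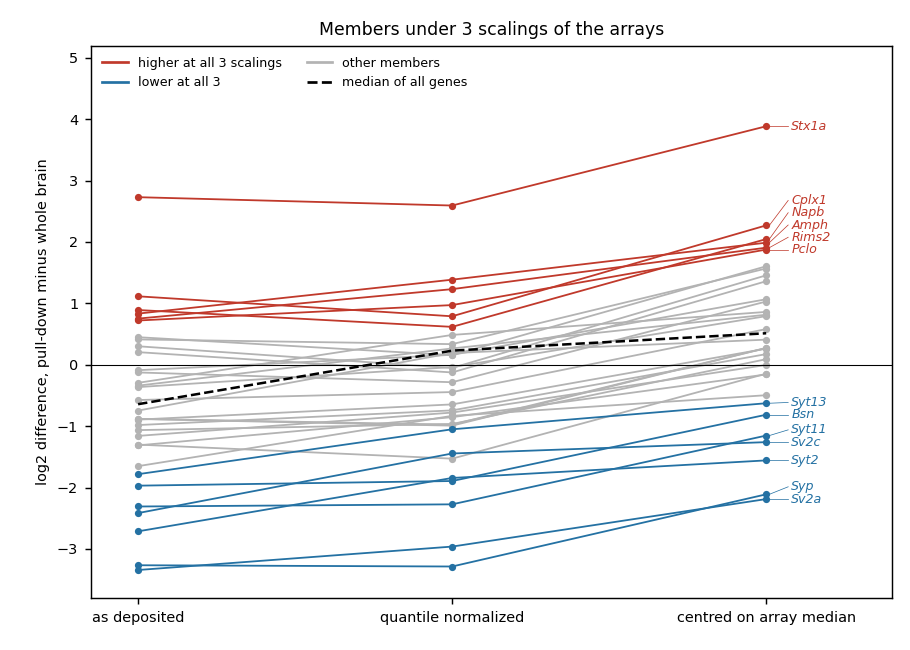
Lines join the log2 difference of each member, pull-down minus whole brain, under 3 scalings of the arrays, and the dashed line is the median of all genes. The 6 members in red were called higher and the 7 in blue lower at each scaling, while grey members changed their call or were not called.

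Members spread far more in pull-down than elsewhere. The SD over the arrays of an extract was 0.16 to 1.30 with a median of 0.56 in pull-down, 0.07 to 0.27 with a median of 0.11 in whole brain, and 0.04 to 0.59 with a median of 0.21 in supernatant. Syp and Syt11 had SDs of 1.30 and 1.13 over the 12 pull-downs, and Snap25 and Napb of 0.16 and 0.18.

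Several probe sets of 1 gene often moved in opposite directions between extracts. Of the 27 members with more than 1 probe set, 10 had probe sets past the threshold both ways against whole brain, against 23.6% of the genes with several. Among genes with 3 or more probe sets it was 6 of 15 members, or 40%, against 32.7% of all. Against supernatant it was 12 of 27 members, against 30.4% of genes with several. None of the 27 had all probe sets higher, while 9 had all lower in the comparison with whole brain. Of the 57 probe sets that do not represent their gene, 4 were higher and 47 lower than in whole brain, with a median of -1.50, where 8.06% of all probe sets are higher and 76.3% lower.

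Stx1a showed the widest split. Its second probe set was -2.03 ± 0.24 against whole brain (adjusted p = 3.78e-08), where the representative set gave 2.73. For Cplx1 the other sets gave -0.63 ± 0.25 and -1.90 ± 0.28, and for Rab3a the other set gave -2.13 ± 0.31. Napb was higher by its representative set and lower by all 5 others (-0.64 to -1.77). Pclo had 1 set at -2.12 ± 0.24, and Rims2 had 3 lower sets of -1.27 to -1.82. Rims1, Rab3c and Sv2b showed the opposite arrangement, in which a set that does not represent the gene was higher, by 0.97 ± 0.17, 1.06 ± 0.20 and 0.90 ± 0.14. Synj1 had a further set at 1.64 ± 0.15, higher than its representative, and lower sets at -0.59 and -2.01. Against supernatant Syt1 and Unc13c joined this group, each with a representative set that was higher and others that were lower, down to -3.49 and -3.47, and all 10 genes named before were split there too. In contrast, every probe set was lower than in whole brain for Syp, Syngr1, Syt2, Syt11, Vamp1, Vamp2, Cplx2, Unc13c and Dnm1. Which transcript, or which end of it, a set reads was not analysed here, and the part of the 3' to 5' difference of the pull-down RNA in these splits was not tested.

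**Figure D3:**
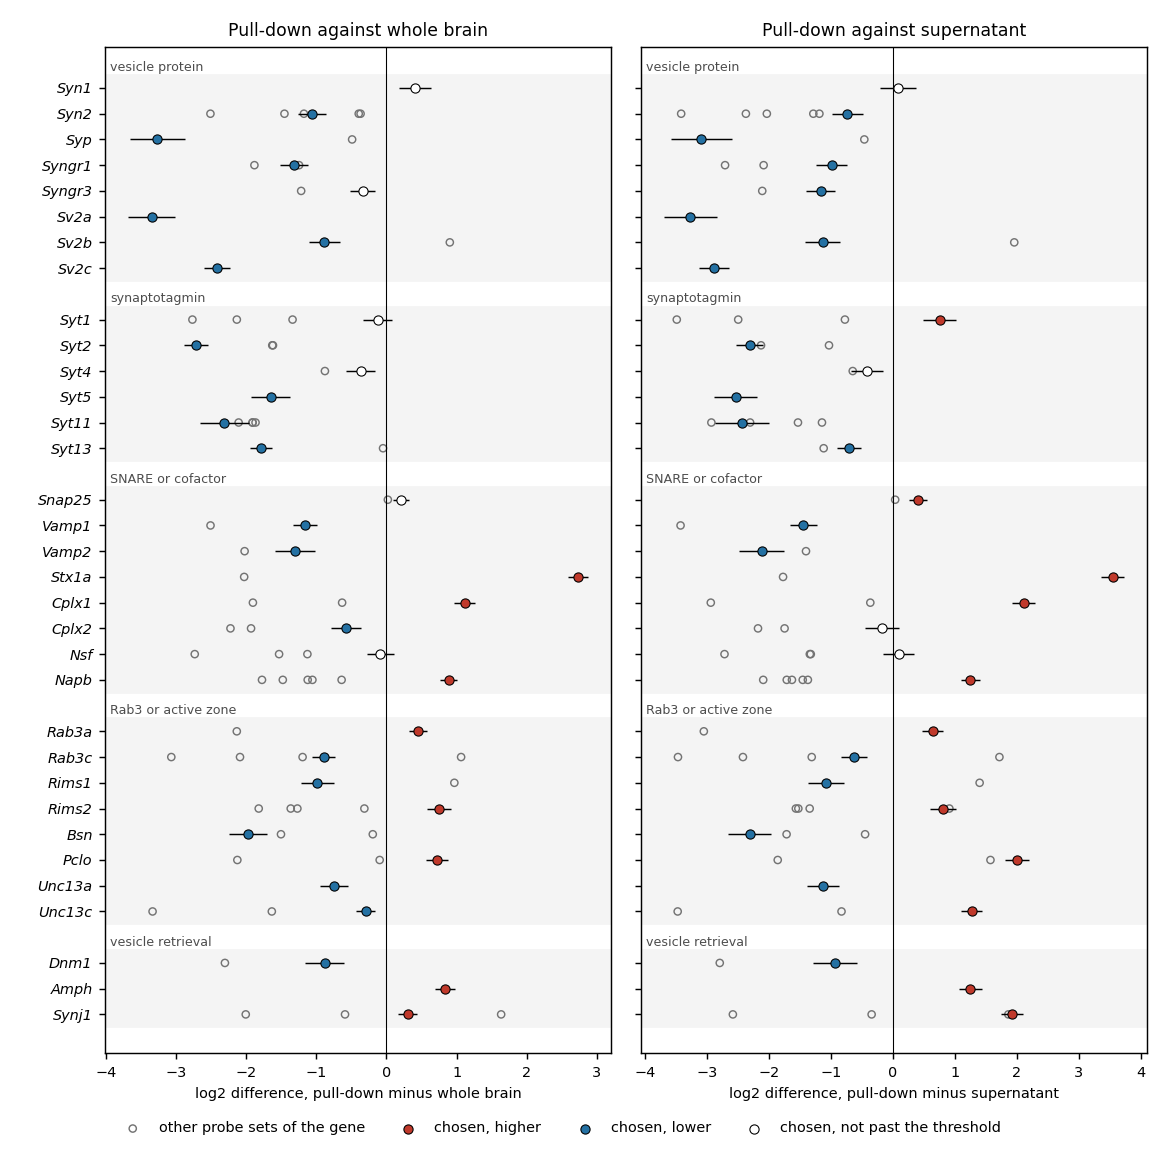
Filled or white circles are the representative probe sets with their SE, and open grey circles the gene's other probe sets, as log2 differences of pull-down minus whole brain (left) and minus supernatant (right). For Stx1a, Cplx1, Napb and Rab3a the representative set lies right of 0 and at least 1 other set far left of it, whereas all sets of Syt11 and Syt2 lie on the left.

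Whole brain and supernatant, compared in the same fit as the pull-downs, differed in fewer members. The SE of this comparison therefore also drew on the spread of the pull-down arrays. For Syp it was 0.52, where the SD was 0.09 in whole brain, 0.11 in supernatant and 1.30 in pull-down. Syt5, Vamp2, Rab3c, Bsn, Napb and Amph did not pass although their groups did not overlap. The part of the pull-down spread in the lower count was not tested. In whole brain 7 members were higher and 1 was lower, where all genes gave 13.2% higher and 1.31% lower, and 25 did not pass. The higher ones were Synj1 (1.62 ± 0.18, 3.07-fold, adjusted p = 2.3e-06), Unc13c (1.56 ± 0.18, 2.95-fold, adjusted p = 2.76e-06), Pclo (1.28 ± 0.21, adjusted p = 0.000139), Syt13 (1.08 ± 0.21, adjusted p = 0.000773), Cplx1 (0.99 ± 0.19, adjusted p = 0.000934), Syt1 (0.88 ± 0.28, adjusted p = 0.0427) and Stx1a (0.81 ± 0.19, adjusted p = 0.00458). The Syt1 call was lost when any 1 of 11 of the 12 arrays was left out (adjusted p = 0.0593 to 0.174, the highest without supernatant 13) and after centring (adjusted p = 0.161). Stx1a was lost without supernatant 13 (0.63, adjusted p = 0.0514) and after centring (adjusted p = 0.0676). With the mean of all probe sets Synj1, Syt13, Cplx1, Syt1 and Stx1a did not pass. The other probe set of Syt13 passed in the opposite direction, lower in whole brain at -1.07, so the direction of Syt13 depends on the probe set. By the representative sets every whole brain exceeded every supernatant for each of the 7 higher genes. Syngr3 was the lower one, at 8.37, 8.55 and 8.66 in whole brain (lowest, median, highest) and 9.55, 9.27, 9.41 and 9.21 in supernatant, a difference of -0.83 ± 0.24 (adjusted p = 0.0242). That call was lost without supernatant 13, 15 or 16 (adjusted p = 0.0507 to 0.0884) and after centring (adjusted p = 0.0894). Groups did not overlap for 14 members, against 24.8% of all genes. With array weights 5 further members passed, Syngr1, Syt2 and Amph as higher and Syt5 and Vamp2 as lower in whole brain. For Synj1, Unc13c, Pclo, Cplx1, Syt1 and Stx1a, supernatant read lower than both pull-down and whole brain, each past the threshold as deposited. Without supernatant 13 that no longer held for Syt1 in either comparison or for Stx1a against whole brain.

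The second question of the design is what sleep deprivation changed in each extract. No member passed in either extract. In pull-down 0 of 33 members passed in limma, where 0% of all genes passed in either direction, and 0 of 33 had an unadjusted p under 0.05. Quantile normalization, centring, array weights, a trended robust fit and the other settings tried also gave 0. The differences ran from -0.29 for Unc13c to 0.34 for Syt11, with 95% intervals that together span -1.09 to 1.49. By the representative probe sets no member's groups were apart, against 0.0715% of all genes. Syt11, the widest upward difference, read 7.79, 9.05 and 11.13 after sleep deprivation and 7.15, 8.76 and 10.81 in controls (lowest, median, highest). The groups overlapped over most of their range, and the highest value in each belongs to the array rich in 18S. Syt13 had the smallest p, with 0.33 (95% interval -0.20 to 0.86, unadjusted p = 0.213, adjusted p = 1). Without pull-down SD 1 and control 3 still 0 of 33 passed.

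In whole brain, where replicates were closer together, 0 of 33 members passed in limma against 0.0605% of all genes higher and 0.0055% lower, and 0 had an unadjusted p under 0.05. The differences ran from -0.16 for Unc13c to 0.20 for Syt13, and all 95% intervals together lay between -0.44 and 0.54. Each interval holds for the representative probe set of 1 member alone, so their range is not a joint bound. Cplx1 had the smallest p. It read 11.51, 11.08, 11.31 and 11.28 in whole brain SD and 10.96, 11.24, 11.02 and 11.21 in whole brain control. The difference was 0.19 (95% interval -0.08 to 0.45, unadjusted p = 0.151, adjusted p = 0.593), with 1 sleep-deprived array below the controls' highest. Syt13 read 8.50, 8.83, 8.60 and 8.90 in whole brain SD and 8.48, 8.50, 8.14 and 8.91 in whole brain control, with overlap. By the representative probe sets no member's groups were apart, against 6.56% of all genes. Other probe sets could be apart. A further set of Pclo read 6.96 to 7.15 in whole brain SD and 6.51 to 6.79 in whole brain control. For Rab3c a further set read 6.84 to 7.00 and 6.03 to 6.78.

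The difference between both effects was tested as an interaction over the 20 pull-down and whole-brain arrays. No member passed (0 of 33, 0 at an unadjusted p under 0.05, against 0% of all genes), and the estimates ran from -0.22 for Vamp1 to 0.37 for Syt11. Stx1a, the member with the largest enrichment, read 12.39, 12.62 and 12.91 in pull-down SD and 12.04, 12.71 and 13.07 in pull-down control (lowest, median, highest). The groups covered nearly the same range, and the arrays rich in 18S were not high for this gene.

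**Figure D4:**
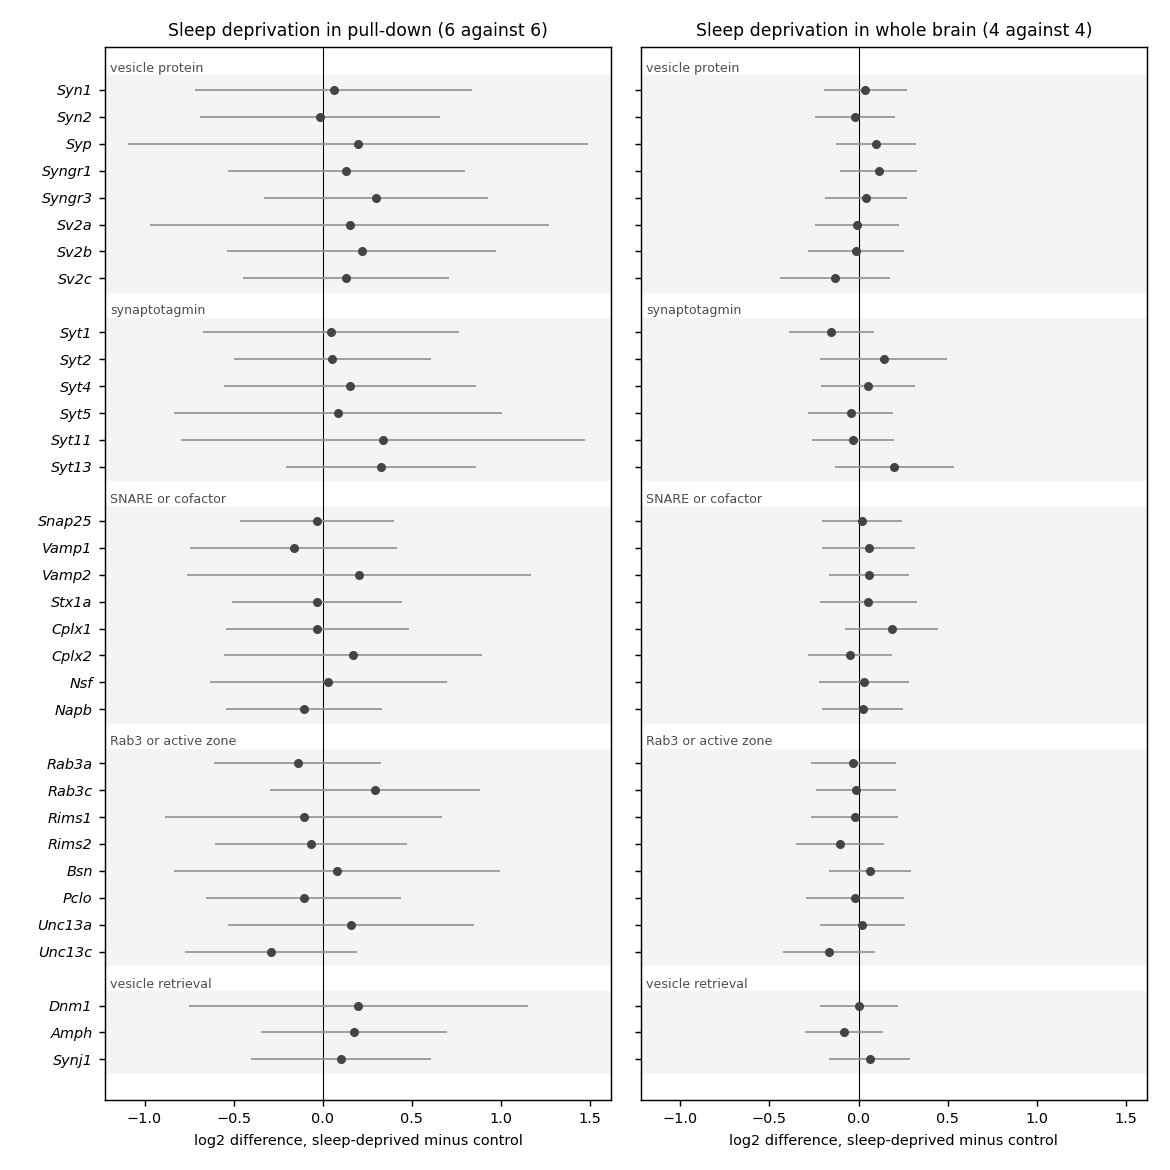
Points are log2 differences, sleep-deprived minus control, of each member's representative probe set with 95% confidence intervals from limma, in pull-down (left, 6 arrays a group) and whole brain (right, 4 arrays a group). Every interval includes 0, and those in whole brain are narrower.

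Other genes of the release pathway, listed beside the members, gave counts of the same kind. Of 63 listed genes 59 were measured, and against whole brain 18 of them were higher and 30 lower in pull-down (12.9% and 68.8% of all genes), with a median of -0.59. That median was 0.19 after quantile normalization and 0.57 after centring, where the median of all genes was 0.23 and 0.51. The largest differences upward were those of Syt7, a calcium sensor of slow release (1.45 ± 0.15, adjusted p = 3.7e-09), the vesicle priming factor Cadps2 (1.26 ± 0.15, adjusted p = 2.02e-08) and the calcium sensor Doc2b (1.16 ± 0.19, adjusted p = 5.16e-06). Downward they were those of Atp6v0a1, a subunit of the proton pump that fills vesicles (-3.88 ± 0.23, adjusted p = 1.58e-13), the vesicular glutamate transporter Slc17a6 (-3.01 ± 0.21, adjusted p = 2.09e-12) and the ubiquitous dynamin Dnm2 (-2.97 ± 0.26, adjusted p = 1.16e-10). All 6 kept their sign at each scaling. Against supernatant 18 were higher and 26 lower (17.4% and 58.7% of all genes), with Syt7 at 2.99 and Atp6v0a1 at -4.33 as the extremes. In whole brain against supernatant 13 were higher and 0 lower, and none passed for sleep deprivation in either extract or in the interaction.

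Markers of cell types were read beside the members. Of 10 neuronal markers 2 were higher in pull-down (against whole brain, Rbfox3 by 1.45 and Elavl4 by 1.16) and 5 lower, among them Uchl1 (-3.79) and Tubb3 (-2.75). Astrocyte markers gave 1 higher, Gfap, and 8 lower of 10, oligodendrocyte markers 0 and 8 of 9, microglial markers 0 and 10 of 10, and markers of endothelial cells and pericytes 0 and 8 of 9. Over all genes 12.9% were higher and 68.8% lower. In the order of these lists, neurons first, the medians were -0.67, -1.37, -1.89, -1.75 and -2.24, against -0.64 for all genes. After centring they were 0.49, -0.21, -0.73, -0.60 and -1.09, against 0.51. After quantile normalization they were -0.55, -0.95, -1.16, -0.70 and -1.12, against 0.23. The log2 of the summed intensity of the neuronal list was 12.95 to 14.70 in pull-down, 14.36 to 14.65 in whole brain and 14.06 to 14.34 in supernatant. For astrocytes it was 12.42 to 13.19 in pull-down, 13.83 to 13.92 in whole brain and 13.62 to 13.76 in supernatant, and for oligodendrocytes 12.81 to 13.47 in pull-down, 14.15 to 14.39 in whole brain and 13.02 to 13.63 in supernatant. For microglia it was 10.14 to 11.11 in pull-down, 11.65 to 12.04 in whole brain and 10.62 to 11.28 in supernatant, and for endothelial cells and pericytes 10.21 to 11.21 in pull-down, 11.43 to 11.78 in whole brain and 10.27 to 11.10 in supernatant. Whether the markers were above background in pull-down was not tested, nor was the part of the cell mixture in the members' differences.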

How the data were processed

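Per the submitters' processing notes the authors used RMA of the affy package, and what they deposited is 1 log2 intensity for each probe set on each array. The sources used here give no version and do not say whether all extracts were normalized together. The deposited log2 values were used with no further scaling or filter. Of 45101 probe sets 64 controls were left out. Tests used limma 3.58.1 (lmFit, eBayes) in R 4.3.3, two-sided, with Benjamini-Hochberg adjustment over 45037 probe sets and a threshold of 0.05. Extracts were compared in 1 fit of 24 arrays and 5 groups, with sleep deprivation groups weighted equally. Sleep deprivation was compared in the 12 pull-down and in the 8 whole-brain arrays, and its interaction in 20. The fits were tested on simulated data. No array pair was identical (highest correlation 0.991). Arrays have no read depth, and their number limits the precision.

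Members and lists were chosen with earlier results of these data known. Values by array are given for the up to 5 passing members with the largest difference in each direction and for fixed paralogue pairs, and members with probe sets passing both ways are named. Members named for sleep deprivation, for their spread, and Bsn, Dnm1, Nsf, Snap25, Syngr1, Sv2b and Syt4 were chosen after their values were seen. Symbols come from the platform annotation of 2016, in which 932 probe sets with several symbols, 1 of them naming a member, were not used. Promoter windows come from RefSeq (GRCm38.p6). The alternatives tried are given in the closing section.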

Additional observations from a re-analysis of the deposited data

Results flagged for a closer look

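In 12 of 165 combinations of a member and a group, 1 array lay far from the others by Dixon's criterion at the 95% level, where chance gives about 1 in 20. Pull-down SD 1 was the high array for Syn2 (10.60, next 9.43), Syt5 (8.81, next 7.04) and Rims1 (10.32, next 9.13), and pull-down control 3 for Sv2a (9.04, next 6.97). These are the arrays with the most 18S signal. Pull-down control 11 was the low array for Pclo (8.89, next 9.94) and Nsf (8.32, next 9.33).

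Supernatant 13, whose labels disagree on sleep deprivation, was the low array for Syt1 (9.78, next 10.23) and Stx1a (8.54, next 9.24), and supernatant 15 for Rab3c (9.35, next 9.65). In whole brain, SD 21 was high for Napb (11.14, next 10.92), control 25 was high for Rims2 (8.72, next 8.44) and control 22 was low for Syt1 (10.84, next 11.15).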

How the results depend on the processing

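Every result was recomputed with quantile normalization, with arrays centred on their median, with array weights, with a trended robust fit, with probe sets above the median level only, with other choices of the probe set, with control or sleep-deprived arrays alone (pull-down against whole brain), with 1 fit of all 24 arrays (sleep deprivation), and without each array in turn. Leaving out the arrays richest in 18S, with or without pull-down control 11, was chosen after seeing the data. Sleep deprivation gave 0 members in every one of these. No paired analysis was possible because both pull-down groups share only the number 3 the whole-brain groups share none, and pull-downs and supernatants share only the number 13. The number of arrays and the spread between pull-downs limit the precision.

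Centring gave 16 higher and 7 lower members against whole brain and 7 lower against supernatant, where as deposited there were 8, 19 and 18. The counts in this section describe the members alone, as the shares of all genes called are given for the deposited values only. The mean of all probe sets of a gene gave 2 higher against whole brain, 3 against supernatant and 2 for whole brain against supernatant. For that last comparison the lower members, 1 as deposited, were 3 after quantile normalization, 0 after centring, 3 with array weights, and 0 to 1 when arrays were left out in turn. Leaving out arrays in turn gave 7 to 9 higher and 18 to 20 lower members against whole brain, and 10 to 11 higher and 17 to 19 lower against supernatant. Restricted to control arrays 7 were higher and 18 lower than in whole brain, and to sleep-deprived arrays 6 and 16.

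Signs turned as follows against whole brain among the members called as deposited. With centring Syn2 was 0.09, Sv2b 0.27, Cplx2 0.58, Rab3c 0.26, Rims1 0.17, Unc13a 0.41, Unc13c 0.86 and Dnm1 0.27, and with quantile normalization Unc13a was 0.19, Unc13c 0.49 and Synj1 -0.053. With the mean of all probe sets Sv2b was 0.0098, Cplx1 -0.47, Rab3a -0.84, Rims2 -0.80, Pclo -0.50, Napb -0.86 and Synj1 -0.16. With x_at and s_at sets left out Stx1a was -2.03 and Rab3a -2.13. Of the members turned by a scaling, Unc13a after centring and Unc13c after centring and quantile normalization were called higher. Against supernatant, among the members called there, centring gave Syn2 0.44, Syngr1 0.18, Syngr3 0.0067, Sv2b 0.040, Syt13 0.47, Rab3c 0.55, Rims1 0.091, Unc13a 0.040 and Dnm1 0.24, and quantile normalization gave Syt13 0.12. Of these only Rab3c was called higher. The mean of all probe sets gave Sv2b 0.41, Syt1 -1.50, Cplx1 -0.40, Rab3a -1.21, Rims1 0.16, Rims2 -0.54, Unc13c -1.01 and Napb -1.17, and without x_at and s_at sets Stx1a was -1.77 and Rab3a -3.05. Members not called as deposited but called with the opposite sign were, against whole brain, Syngr3 (0.27 with quantile normalization, 0.81 with centring), Syt1 (1.03), Syt4 (0.79) and Nsf (1.07) with centring, and, against supernatant, Cplx2 with centring (1.00) and Nsf with the mean of all probe sets (-1.32). With centring the lower calls of Syngr1, Syt5, Vamp1 and Vamp2 against whole brain and of Vamp1 and Vamp2 against supernatant were lost with no change of sign, and with quantile normalization the calls of Rab3a in both comparisons and of Snap25 and Unc13a against supernatant. The cause was not tested.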
